A study of Mus musculus with 2 samples.

Results

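The insulin-like growth factor (IGF) ligands, their receptor and the IGF binding proteins were followed as a named set of 9 of the 31053 genes in the count files: Igf1, Igf2, Igf1r, Igfbp2, Igfbp3, Igfbp4, Igfbp5, Igfbp6 and Igfbp7. The genes were chosen by their levels over cell classes and libraries in an earlier look at these same cells, so those levels are given as a description. They were read in barcodes that held at least 3000 unique molecular identifiers (UMIs, each the mark of 1 RNA molecule) and at most 20% mitochondrial UMIs. Stromal cells of the intestinal lamina propria, the connective tissue under the gut epithelium, were sorted as DAPI-, Ter119-, Epcam- and CD45- from C57BL/6 mice whose age the labels give as 11 weeks. The ApcMin mice were ApcMin/+ with both Lef1 alleles intact (Lef1 +/+), and the VApcMinL mice were ApcMin/+ with Lef1 fl/fl and Villin-Cre. Both groups therefore carry the ApcMin allele, which gives rise to intestinal adenomas. Villin-Cre is active in the intestinal epithelium, so the fibroblasts and endothelial cells described here are not the cells in which Lef1 was deleted. The comparison asks whether a change made in the epithelium goes with a different stroma. Each genotype has 1 library, and the number of mice in it is not given in the sources used here. There is thus no replicate spread and no test, and genotype cannot be told apart from mouse, dissection or library. All intervals are exact 95% intervals that cover counting error only.

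As background, IGF1 and IGF2 are secreted hormones that act through IGF1R, a receptor tyrosine kinase that drives growth and survival. IGF binding proteins hold the ligands in tissue fluid, shielding them from the receptor or storing them, and proteases such as pappalysin (PAPP-A) release the ligand by cutting the binding protein. IGFBP7 binds IGFs only weakly and is best known from blood vessels. In the gut wall the mesenchyme is a local source of IGF1 for the neighbouring epithelium.

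The ApcMin library held 93203061 UMIs and the VApcMinL library 101609269. The thresholds kept 6599 cells with a median of 10849 UMIs in ApcMin, and 6569 with a median of 9111 in VApcMinL, after 75 and 531 barcodes were left out for mitochondrial UMIs. The libraries shared 18 cell barcodes. Cells were clustered without the 9 genes and named from marker genes, which gave 3351 and 3699 fibroblast-like cells in 6 subsets. Named here by leading markers, the subsets are Pi16 (1235 and 942 cells), Lpl Penk Plau (880 and 709), Adamdec1 (493 and 1152), Grem1 Ackr4 (542 and 677), Scg2 Fibin (174 and 145) and Bmp5 Sox6 (27 and 74). There were 123 and 486 blood endothelial-like, 38 and 175 lymphatic endothelial-like, 35 and 48 smooth muscle-like, 31 and 173 glial-like and 288 and 221 myeloid-like cells. Despite the sort, those myeloid-like cells (Ptprc, the gene of CD45, in 96.2% and 84.2% of them), 50 and 347 epithelial-like cells, 1366 and 365 erythroid-like cells and 1 cluster each of B-, plasma- and T or ILC-like cells remained. Lef1, the deleted gene, was at 7.55 CPM (4.73 to 11.4; CPM is the gene's UMIs per 1000000 UMIs of the class) in the epithelial-like ApcMin cells and at 1.94 CPM (1.30 to 2.79) in the VApcMinL ones. These levels rest on few cells, with a Lef1 UMI in 8% of the 50 ApcMin and 2.88% of the 347 VApcMinL cells. Whether the 3' reads of Lef1 fall in the deleted part is not given in the sources used here. The summed level of 9 erythroid markers in fibroblast-like cells was 17361 CPM in ApcMin and 3229 CPM in VApcMinL, and its part in the library differences was not tested.

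Of the 9 genes, 2 pairs have close neighbours in the family (GENCODE vM21, GRCm38). Igfbp2 (chr1:72824503-72852474, plus strand) and Igfbp5 (chr1:72857932-72874884, minus strand) lie tail to tail with 5457 bases between them. Igfbp3 (chr11:7206086-7213923, minus strand) lies 3539 bases from Igfbp1. Igfbp4 (chr11:99041244-99054392, plus strand), Igfbp6 (chr15:102144362-102149511, plus strand) and Igfbp7 (chr5:77349240-77408041, minus strand) stand apart, though Igfbp7 overlaps Polr2b on the other strand. Igf1 (chr10:87858265-87937042, plus strand) overlaps an antisense gene, and Igf2 (chr7:142650766-142666816, minus strand) overlaps an antisense gene and a gene of its own strand. Igf1r spans chr7:67952827-68233668 on the plus strand. The promoters of 4 genes are shown because the results turn on them: Igf1 as the ligand of the fibroblasts, Igfbp3 as the gene that differed most between the libraries in several subsets, and Igfbp4 and Igfbp7 as the binding proteins found throughout the stroma. They come from RefSeq (GRCm38.p6), run 5′ to 3′ on the gene's strand from 250 bases before to 50 bases after the start site, and carry in capitals the matches on either strand to any of 3 motifs, which are the box spelled TATAAA, the GC box with the letters GGGCGG, and the TCF/LEF core that reads TTCAAAG.
Igf1 promoter (chr10:87860861-87861160, plus strand): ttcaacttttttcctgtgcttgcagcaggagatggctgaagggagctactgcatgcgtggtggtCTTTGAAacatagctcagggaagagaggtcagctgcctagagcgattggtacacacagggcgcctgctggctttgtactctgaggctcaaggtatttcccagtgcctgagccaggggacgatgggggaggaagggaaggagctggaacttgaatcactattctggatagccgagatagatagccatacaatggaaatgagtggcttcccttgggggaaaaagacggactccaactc
Igfbp3 promoter (chr11:7213874-7214173, minus strand): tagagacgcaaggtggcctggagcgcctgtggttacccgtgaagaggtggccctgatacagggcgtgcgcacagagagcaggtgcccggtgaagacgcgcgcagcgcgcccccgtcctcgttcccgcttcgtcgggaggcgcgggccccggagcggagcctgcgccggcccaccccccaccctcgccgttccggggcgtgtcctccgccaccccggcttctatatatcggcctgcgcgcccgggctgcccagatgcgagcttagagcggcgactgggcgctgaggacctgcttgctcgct
Igfbp4 promoter (chr11:99040994-99041293, plus strand): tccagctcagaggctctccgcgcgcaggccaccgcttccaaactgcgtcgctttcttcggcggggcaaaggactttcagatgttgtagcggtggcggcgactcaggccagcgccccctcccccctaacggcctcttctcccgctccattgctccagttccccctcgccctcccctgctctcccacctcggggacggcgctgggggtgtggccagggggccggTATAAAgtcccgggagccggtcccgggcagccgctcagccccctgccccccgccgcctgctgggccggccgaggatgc
Igfbp7 promoter (chr5:77407996-77408295, minus strand): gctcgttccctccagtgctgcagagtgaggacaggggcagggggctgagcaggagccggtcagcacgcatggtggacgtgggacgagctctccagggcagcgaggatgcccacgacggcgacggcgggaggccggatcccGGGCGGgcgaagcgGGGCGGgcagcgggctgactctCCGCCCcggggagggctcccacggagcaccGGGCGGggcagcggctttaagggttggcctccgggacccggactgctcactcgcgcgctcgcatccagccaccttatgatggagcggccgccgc

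The Igfbp7 window held 4 GC boxes and a GC content of 73.3%, the Igfbp4 window the TATAAA box, which begins 28 bases before the start site, and the Igf1 window a TCF/LEF core that begins 186 bases before it on the reverse strand. The Igf1 window (chr10:87860861-87861160) lies inside the GENCODE gene, which begins at base 87858265, so its start site is not the gene's 5′ end. The Igfbp3 window held none of the 3 motifs at a GC content of 71.7%. Among 32851 promoters of the same length, 13.6% held TATAAA, 35.7% the GC box and 5.14% the TCF/LEF core. A match is a run of letters and not a measured site.

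Fibroblasts held nearly all of the Igf1 RNA. They contained 17966 of the 19004 Igf1 UMIs of the ApcMin cells, 94.5%, and their level was 387 CPM (381 to 393) in ApcMin and 469 CPM (463 to 476) in VApcMinL. Within them the order of levels was led by the Adamdec1 subset, lamina propria fibroblasts, at 554 CPM (535 to 573) in ApcMin and 807 CPM (790 to 824) in VApcMinL. The Pi16 subset, adventitial fibroblasts, followed at 434 CPM (425 to 444) and 499 CPM (487 to 511). The Grem1 Ackr4 subset, which makes the BMP antagonist gremlin near the crypt base, was at 325 CPM (312 to 338) and 257 CPM (246 to 268). The Lpl Penk Plau subset held 289 CPM (279 to 299) in ApcMin and 181 CPM (171 to 192) in VApcMinL. The Scg2 Fibin levels were 259.9 CPM (240.0 to 281) and 330.0 CPM (303 to 358). The Bmp5 Sox6 subset, which lies under the epithelium, was the lowest in ApcMin at 118 CPM (84.9 to 159), and in VApcMinL its 187 CPM (157 to 221) overlapped the Lpl Penk Plau level.

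The library ratio of Igf1 had opposite directions among the subsets. The VApcMinL level was 1.46 times (1.40 to 1.52) the ApcMin level in the Adamdec1 subset and 1.15 times (1.11 to 1.19) in the Pi16 subset. It was 0.628 times (0.587 to 0.671) in the Lpl Penk Plau subset and 0.790 times (0.745 to 0.837) in the Grem1 Ackr4 subset. None of these 4 ratios passed 2-fold. The Lpl Penk Plau level of VApcMinL was no higher than that of barcodes too small to be cells, given below. In the Pi16 subset the log2 ratio of 0.20 ran from -0.0012 to 0.34 under 10 alternatives of the processing. With every cell thinned to 1000 UMIs, an Igf1 UMI was found in 36.3% of ApcMin and 42.5% of VApcMinL Adamdec1 cells, and in 19.9% and 13.0% of Lpl Penk Plau cells.

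Outside the fibroblasts, the myeloid-like cells held Igf1 at 131 CPM (121 to 143) in ApcMin and 123 CPM (109 to 138) in VApcMinL. Glial-like cells were at 145 CPM in ApcMin and 17.1 CPM in VApcMinL, from only 35 and 19 UMIs. The RNA of barcodes too small to be cells, here called empty droplets, carried 114 CPM of Igf1 in ApcMin and 197 CPM in VApcMinL. In VApcMinL the intervals of the Lpl Penk Plau (181 CPM) and Bmp5 Sox6 (187 CPM) subsets overlapped that of the empty droplets. In ApcMin that of the Bmp5 Sox6 subset (118 CPM) did. B-like cells, which should lack the gene, were at 4.42 and 8.18 CPM, plasma-like cells at 3.88 and 10.4 CPM and erythroid-like cells at 2.15 and 6.20 CPM. The myeloid level was above these 3 classes, but its interval overlaps that of the empty droplets in ApcMin (103 to 126) and lies under it in VApcMinL (185 to 210). The myeloid-like cluster was led by mast cell and macrophage genes. Igf1 in blood endothelial-like cells was 104 CPM (85.6 to 126) in ApcMin and 36.1 CPM (29.9 to 43.1) in VApcMinL, where 86.9% of the ApcMin UMIs came from 10 cells. The summed level of 11 fibroblast markers in the same endothelial cells was 7584 CPM in ApcMin and 2244 CPM in VApcMinL, with none of the 11 at 0, and its part in the difference was not tested. Without the cells of highest doublet score the Igf1 difference in blood endothelium turned from a log2 ratio of -1.53 to 0.12.

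**Figure D1:**
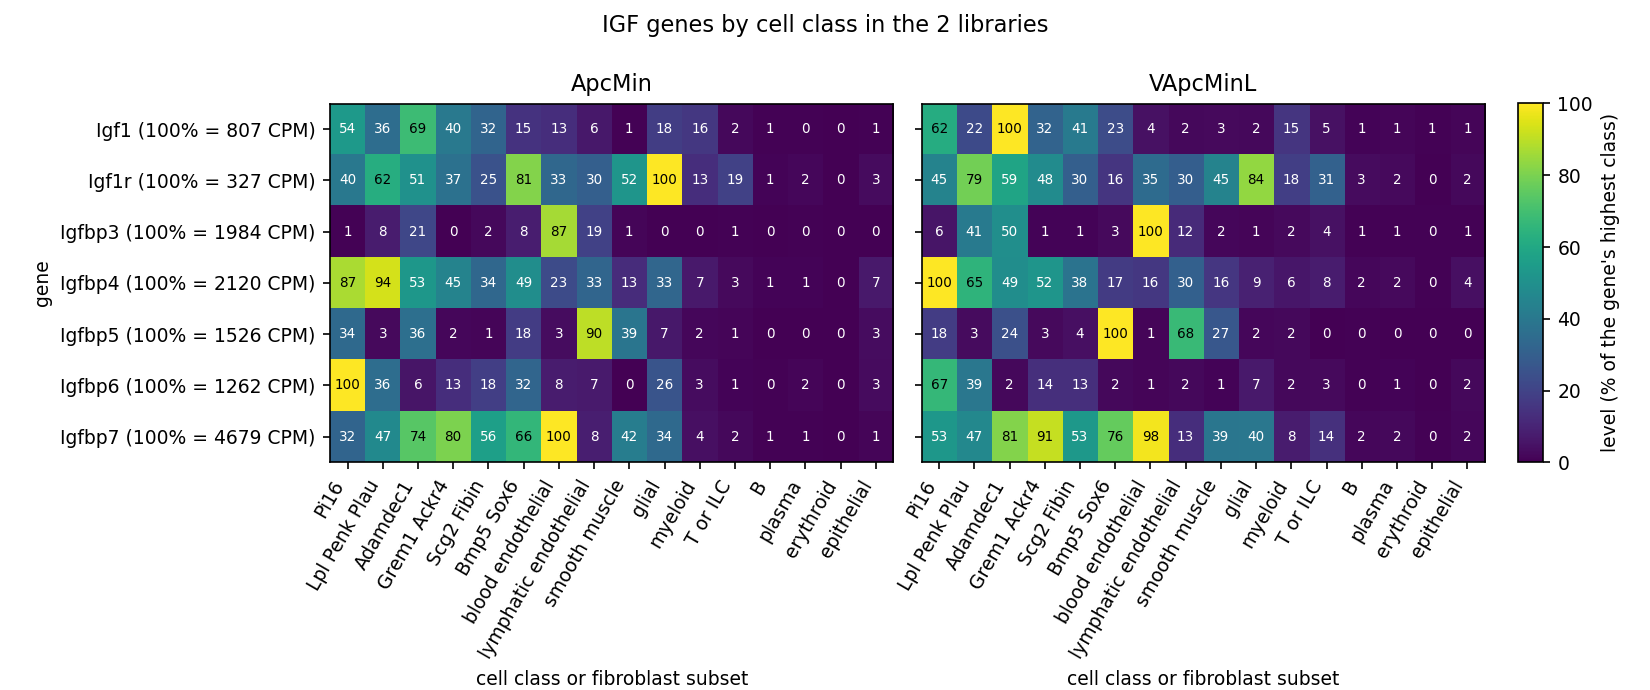
Level of 7 of the IGF genes (rows) by fibroblast subset and cell class (columns) in the ApcMin (left) and VApcMinL (right) libraries, as a percentage of the gene's highest class over both libraries, whose CPM stands beside the gene. Classes with at least 20 cells in each library are drawn. Igf1 is brightest in the Adamdec1 and Pi16 subsets, Igf1r in glial-like cells, Igfbp3 and Igfbp7 in blood endothelium, and Igfbp6 in the Pi16 subset.

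Igf2, the fetal ligand, was near 0. In all, 23 Igf2 UMIs were counted in all ApcMin cells and 23 in all VApcMinL cells, 0.295 CPM (0.187 to 0.443) and 0.304 CPM (0.193 to 0.456). In ApcMin, 11 of the 23 lay in the Scg2 Fibin subset, at 4.51 CPM (2.25 to 8.07), and that subset held 1 in VApcMinL. The neighbouring imprinted H19 was at 0.711 and 1.44 CPM in fibroblast-like cells.

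The receptor Igf1r was read in every stromal class and was highest in the glial-like cells, the support cells of the gut's own nervous system. Its level there was 327 CPM (259 to 408) in ApcMin and 274 CPM (244 to 306) in VApcMinL. Fibroblast-like cells were at 149 CPM (146 to 153) in ApcMin and 175 CPM (171 to 179) in VApcMinL, next among the classes in VApcMinL only. Smooth muscle-like cells stood at 170 CPM (119 to 237) and 146 CPM (108 to 192), which overlaps the fibroblast level in both libraries.

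Among the 5 larger fibroblast subsets the richest in the receptor was Lpl Penk Plau at 204 CPM (196 to 213) and 257 CPM (245 to 270), and in VApcMinL its interval overlapped that of the glial-like cells. The Adamdec1 subset was at 165 and 192 CPM, the Pi16 subset at 131 and 146 CPM and the Grem1 Ackr4 subset at 122 and 158 CPM. Scg2 Fibin cells held 82.0 and 98.7 CPM. The receptor thus ranked the subsets otherwise than the ligand did, with the Lpl Penk Plau subset above the Adamdec1 subset. Blood endothelial-like cells (109 and 115 CPM) and lymphatic endothelial-like cells (99.5 and 98.0 CPM) were close to each other. In the Bmp5 Sox6 subset Igf1r was 266 CPM (215 to 326) in ApcMin and 51.1 CPM (36.1 to 70.1) in VApcMinL, from 95 and 38 UMIs.

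Of the binding proteins, Igfbp3, the main IGF carrier of blood plasma, was highest in blood endothelium. The blood endothelial-like cells held 1716 CPM (1637 to 1798) in ApcMin and 1984 CPM (1936 to 2032) in VApcMinL, a ratio of 1.16 (1.10 to 1.22). Lymphatic endothelial-like cells were at 382 CPM (322 to 450) and 237 CPM (212 to 264). Among fibroblasts the levels were uneven. The Adamdec1 subset had 423 CPM (407 to 439) in ApcMin and 984 CPM (965 to 1002) in VApcMinL, the Lpl Penk Plau subset 154 CPM (146 to 161) and 811 CPM (790.0 to 833), and the Pi16 subset 13.3 CPM (11.7 to 15.1) and 112 CPM (106 to 118). The Grem1 Ackr4 subset held 3.96 CPM (2.69 to 5.62) in ApcMin and 18.7 CPM (15.8 to 21.9) in VApcMinL. The Scg2 Fibin levels were 43.4 CPM (35.6 to 52.5) and 20.4 CPM (14.2 to 28.4).

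Igfbp3 was the gene of the set whose fibroblast level differed most between the libraries among those with over 1000 UMIs. Over all fibroblast-like cells it was at 101 CPM in ApcMin and 436 CPM in VApcMinL, 4.31 times (4.17 to 4.45) as high. The VApcMinL level was 8.40 times (7.34 to 9.64) the ApcMin level in the Pi16 subset, 5.28 times (4.99 to 5.58) in the Lpl Penk Plau subset and 2.33 times (2.23 to 2.43) in the Adamdec1 subset. A finer clustering, described below, splits Wif1-led cells (31 in ApcMin and 132 in VApcMinL) from the Pi16 subset. Its ratios were 6.86 (5.81 to 8.12) in Pi16-led and 2.58 (2.04 to 3.32) in Wif1-led cells, both under 8.40. In VApcMinL the Wif1-led cells held 710 of the 1453 Igfbp3 UMIs of the Pi16 subset. The Pi16 ratio of 8.40 thus also carries a change in the mix of cells. Both Pi16 levels, 13.3 and 112 CPM, lay under the 89.9 and 159.5 CPM of the empty droplets. The Adamdec1 subset is also a larger share of the VApcMinL library (17.5% of cells against 7.47%). With each fibroblast subset at equal weight the log2 ratio over all fibroblasts was 1.33 instead of 2.11. The other subsets had under 200 Igfbp3 UMIs, and in Scg2 Fibin and Bmp5 Sox6 the VApcMinL level was the lower one (51.1 against 157 CPM in Bmp5 Sox6).

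**Figure D2:**
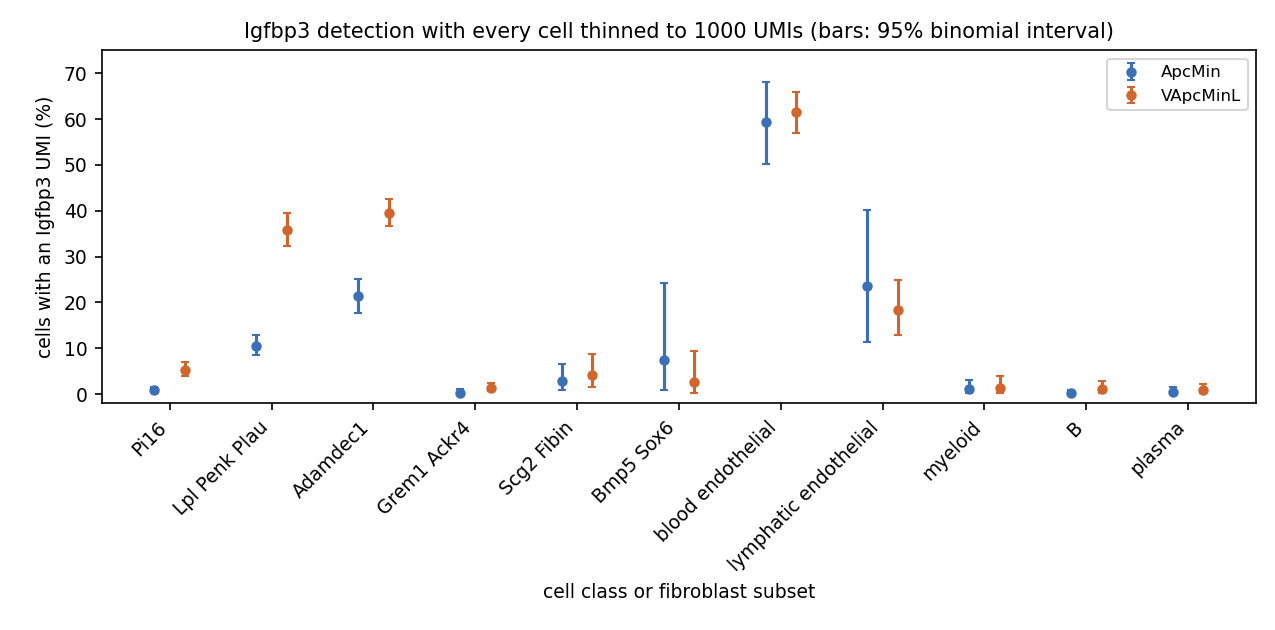
Share of cells with an Igfbp3 UMI (percent) after every cell was thinned to 1000 UMIs, by fibroblast subset and cell class, for ApcMin (blue) and VApcMinL (orange), with exact binomial 95% intervals. The shares are 10.6% and 35.8% in Lpl Penk Plau cells and 21.3% and 39.6% in Adamdec1 cells, and the intervals of blood endothelial-like cells (59.3% and 61.5%) overlap.

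The share of cells with an Igfbp3 UMI moved with the level. At the fixed depth of 1000 UMIs the share was 0.810% in ApcMin and 5.31% in VApcMinL Pi16 cells, 10.6% and 35.8% in Lpl Penk Plau cells and 21.3% and 39.6% in Adamdec1 cells. The same share in B-like cells was 0.151% and 1.13%. Without thinning it was 30.3% and 62.1% in Lpl Penk Plau cells, at median depths of 11961 and 9380 UMIs.

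RNA of other cells in the fibroblast barcodes was measured beside this. The summed level of 12 blood endothelial markers was 36.2 CPM in ApcMin and 275 CPM in VApcMinL Pi16 cells, 46.2 and 102 CPM in Lpl Penk Plau cells and 54.8 and 83.0 CPM in Adamdec1 cells. No marker of the 12 was found in over 25% of the cells of these subsets, and Tie1 alone was at 0, in ApcMin Lpl Penk Plau cells. Blood endothelial-like cells held 0.0824 Igfbp3 UMIs per UMI of these markers in ApcMin and 0.0802 in VApcMinL. The Pi16 subset held 0.368 and 0.406, the Lpl Penk Plau subset 3.33 and 7.97, and the Adamdec1 subset 7.71 and 11.9. The summed level of 4 fat cell markers in Pi16 cells was 4.16 CPM in ApcMin and 697 CPM in VApcMinL, and the part of these markers in the difference was not tested. Of the 4, Cfd and Car3 are also leading genes of the Pi16 subset, so the sum cannot tell RNA of other cells from its own. Igfbp3 in the empty droplets was 89.9 CPM in ApcMin and 159.5 CPM in VApcMinL. The Pi16 levels of 13.3 and 112 CPM were under these, as were those of the Pi16-led finer cells at 9.69 and 66.4 CPM. The Grem1 Ackr4 level was 3.96 CPM in ApcMin and 18.7 CPM in VApcMinL, under the empty droplets in both, and its ratio was 4.72 (3.19 to 7.18). The part of free RNA in the library differences was not tested. Without the cells of highest doublet score the log2 ratios were 3.06, 2.39 and 1.18 in the Pi16, Lpl Penk Plau and Adamdec1 subsets, against 3.07, 2.40 and 1.22 with them.

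**Figure D3:**
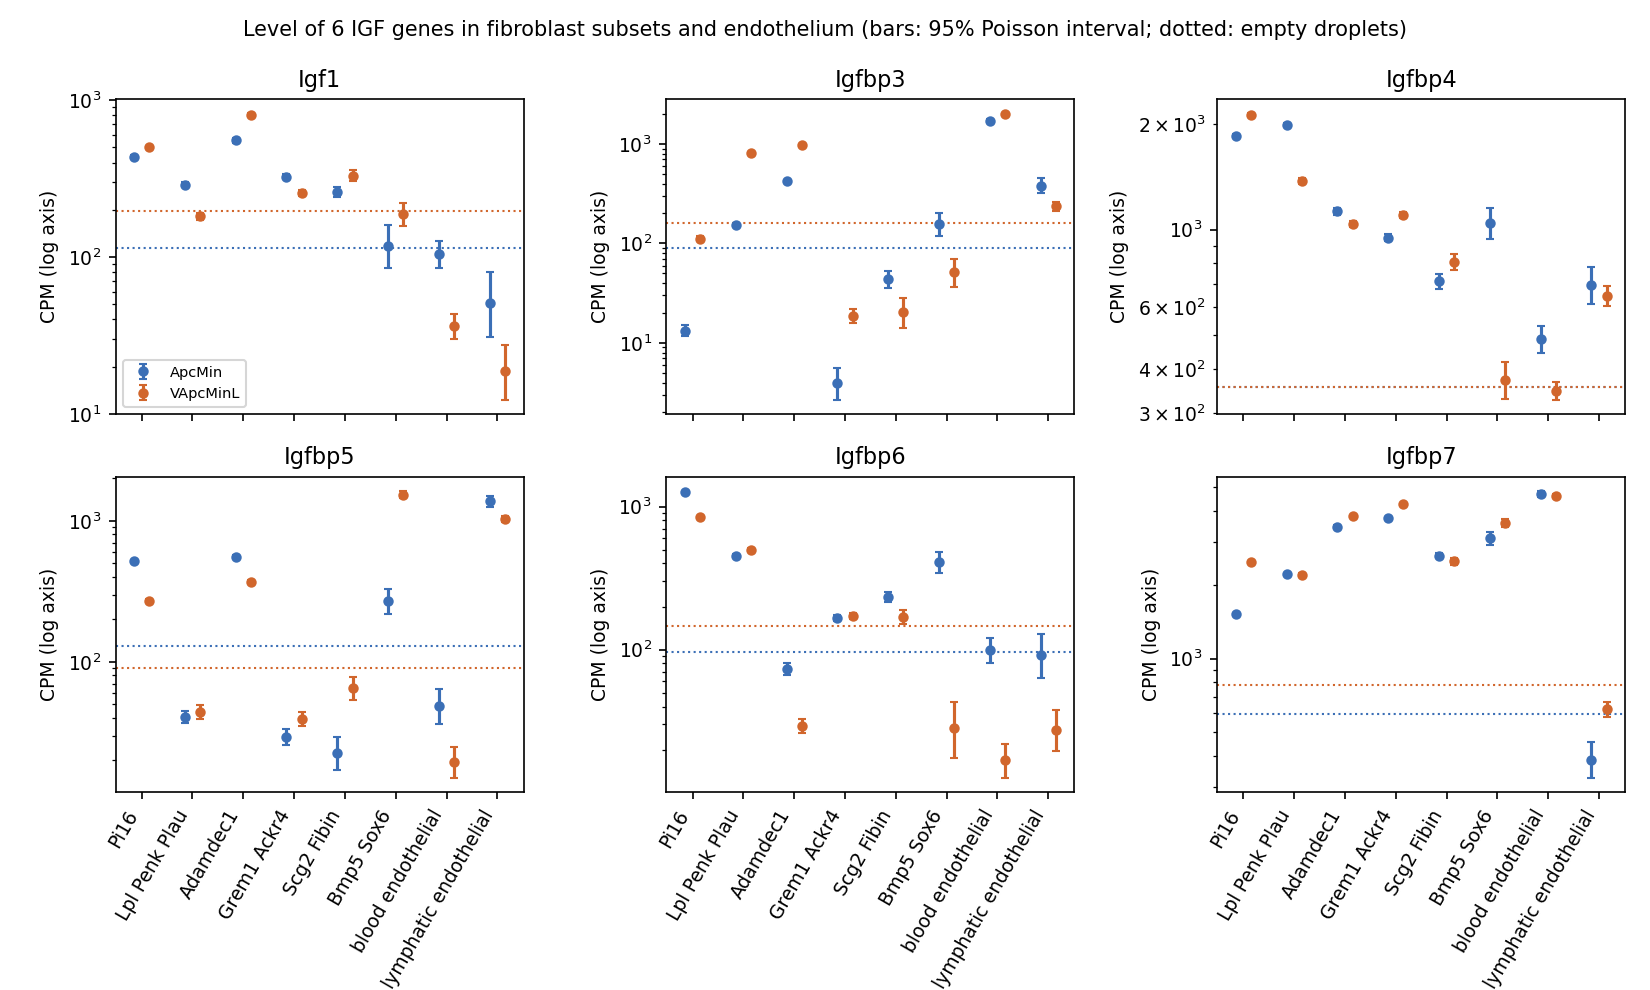
CPM on a log axis of Igf1 and 5 binding proteins in the 6 fibroblast subsets and both endothelial classes of ApcMin (blue) and VApcMinL (orange), with exact Poisson 95% intervals, and dotted lines for the level in the empty droplets of each library. The Igfbp3 points of the libraries lie apart in the Pi16, Lpl Penk Plau and Adamdec1 subsets and close together in blood endothelium, and Igfbp7 lies over 1000 CPM in all but lymphatic endothelium.

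Igfbp4, which restrains IGF action until PAPP-A cuts it, was read in nearly every fibroblast. A UMI was found in 98.5% of ApcMin and 95.5% of VApcMinL fibroblast-like cells, and their level was 1565 CPM (1554 to 1577) and 1421 CPM (1410.0 to 1433). The Lpl Penk Plau subset led in ApcMin at 1985 CPM (1958 to 2012) and was at 1377 CPM (1349 to 1405) in VApcMinL, 0.694 times (0.677 to 0.711) as high. The Pi16 subset led in VApcMinL at 2120.1 CPM (2095 to 2145), where it held 1849 CPM (1829.9 to 1869) in ApcMin. Adamdec1 cells were at 1126 and 1036 CPM, Grem1 Ackr4 cells at 948 and 1102 CPM and Scg2 Fibin cells at 712 and 808 CPM. Igfbp4 and Igf1 were thus both lower in VApcMinL in the Lpl Penk Plau subset and both higher in the Pi16 subset. The Pi16 difference of Igf1 was small and depended on the processing, with a lowest log2 ratio of -0.0012.

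Away from fibroblasts, Igfbp4 was at 694 and 647 CPM in lymphatic endothelial-like cells and at 486 and 347 CPM in blood endothelial-like cells. The blood endothelial log2 ratio of -0.49 turned to 0.73 without the highest doublet scores and to 0.11 without the 10 highest cells. The 34 mesothelial-like cells of VApcMinL held 1360.3 CPM (1266 to 1460.1), an interval that reaches the fibroblast level. In glial-like cells it was 700.2 CPM (599 to 814) in ApcMin, of which 94.7% came from 10 cells, and 192 CPM (167 to 219.7) in VApcMinL. The summed level of 11 fibroblast markers in the glial-like cells was 10954 and 3180 CPM, with none of the 11 at 0, and its part was not tested.

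Igfbp5, a binding protein that also attaches to matrix, was concentrated in fewer cells. Among the classes lymphatic endothelium was the highest, at 1374 CPM (1258 to 1499) in ApcMin and 1033 CPM (980.4 to 1088) in VApcMinL, with a UMI in 65.8% and 63.4% of the cells. The log2 ratio of -0.41 turned to 1.08 when the 10 highest cells of each library were left out. These were 10 of 38 ApcMin and 10 of 175 VApcMinL cells, so the libraries were trimmed unequally and the turn cannot show a direction. Smooth muscle-like cells followed in ApcMin at 593 CPM (493 to 708) and held 414 CPM (349 to 488) in VApcMinL. Blood endothelial-like cells were at 48.8 and 19.5 CPM, so the endothelial classes had opposite orders for Igfbp3 and Igfbp5.

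Among the fibroblasts, Igfbp5 was highest in the Pi16 and Adamdec1 subsets among the 5 larger ones, and lower in VApcMinL in both. It was 519.5 CPM (509 to 529.9) in ApcMin and 269.6 CPM (261 to 279) in VApcMinL Pi16 cells, 0.519 times (0.499 to 0.539). In Adamdec1 cells it was 555 CPM (537 to 574) and 370.0 CPM (359 to 381), 0.666 times (0.637 to 0.697). The Lpl Penk Plau level was 40.5 and 43.9 CPM and the Grem1 Ackr4 level 29.2 and 39.5 CPM, all under the 129 and 90.9 CPM of the empty droplets. The Bmp5 Sox6 subset showed 269 CPM (218 to 329) and 1526 CPM (1438 to 1617), but 10 cells held 99.8% of its VApcMinL UMIs and 100% of its ApcMin UMIs. In ApcMin the 10 highest Pi16 cells held 24.9% of that subset's Igfbp5 UMIs.

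Igfbp6, which prefers IGF2 over IGF1, was highest in the mesothelium and, among the fibroblast subsets, in Pi16 cells. In Pi16 cells its level lay under those of Igfbp4 and Igfbp7. The 7 and 34 mesothelial-like cells, from the outer lining of the gut, held 6301 CPM (5991 to 6623) in ApcMin and 5776 CPM (5579.7 to 5978) in VApcMinL, with a UMI in 100% of them. The Pi16 subset was at 1262 CPM (1246 to 1278) and 839 CPM (824 to 855), 0.665 times (0.650 to 0.680). The Lpl Penk Plau subset held 449.9 and 498 CPM, the Scg2 Fibin subset 232 and 169.9 CPM and the Grem1 Ackr4 subset 166 and 172 CPM. The Adamdec1 subset was lowest among the 5 larger subsets, at 73.5 CPM (66.9 to 80.5) and 29.3 CPM (26.2 to 32.7), 0.399 times (0.345 to 0.461), both under the empty droplets' 96.0 and 146 CPM. Igfbp3 and Igfbp6 thus had opposite library differences in the Pi16 subset, while in Lpl Penk Plau cells Igfbp6 differed by a ratio of 1.11 (1.06 to 1.16).

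**Figure D4:**
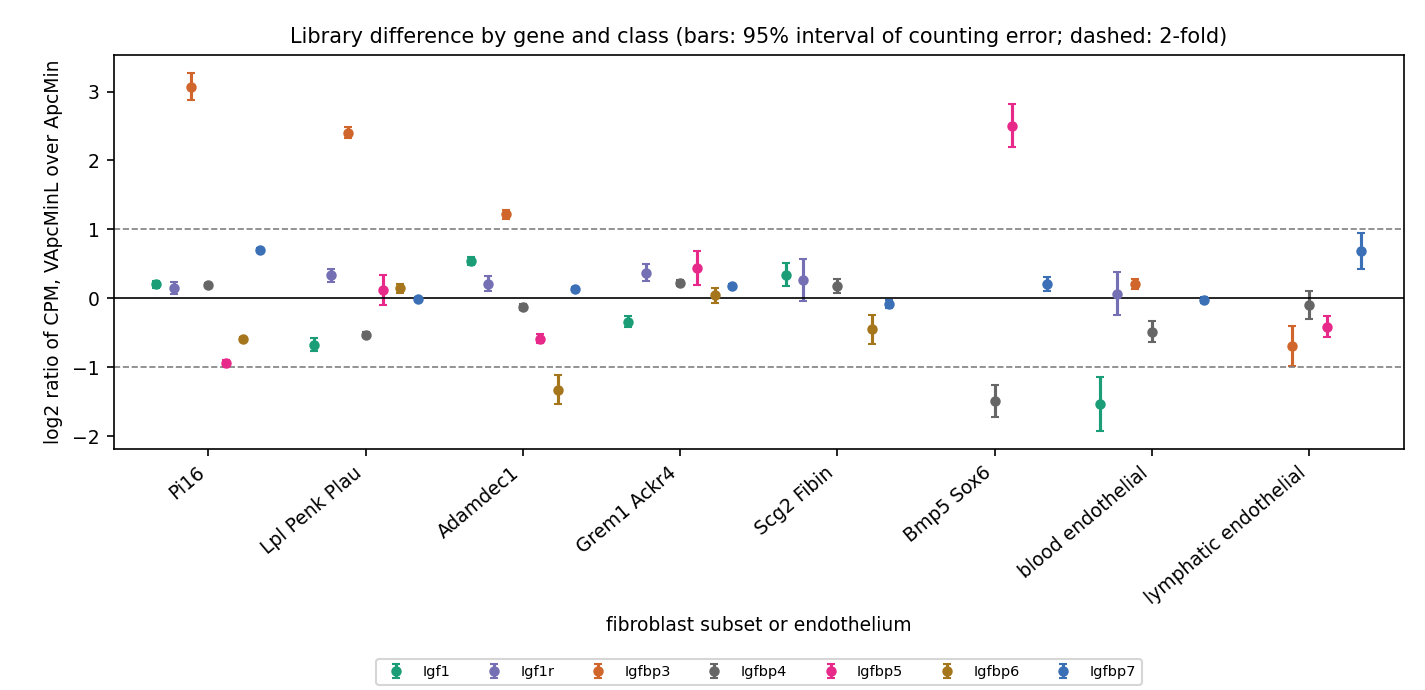
Log2 ratio of CPM between the libraries (VApcMinL over ApcMin) of 7 genes where they have at least 200 UMIs in the class, by fibroblast subset and endothelial class, with 95% intervals of counting error and dashed lines at 2-fold. Igfbp3 lies above the upper line in the Pi16, Lpl Penk Plau and Adamdec1 subsets, and Igfbp6 below the lower line in the Adamdec1 subset.

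Igfbp7, the weak binder, was read throughout the stroma, at a far lower level in lymphatic than in blood vessels. Blood endothelial-like cells held 4679 CPM (4548 to 4813) in ApcMin and 4603 CPM (4531 to 4677) in VApcMinL, a ratio of 0.984 (0.952 to 1.02). Lymphatic endothelial-like cells held 387 CPM (327 to 456) and 620.5 CPM (579.6 to 663), under the 596 CPM and 783 CPM of the empty droplets. A UMI was found in 57.9% and 62.9% of these lymphatic cells. Igfbp7 and Igfbp5 thus separated the vessel types in opposite directions. Among the fibroblasts the Grem1 Ackr4 subset led at 3752 and 4260.0 CPM, followed by Adamdec1 at 3458 and 3804 CPM. The Pi16 subset was the lowest in ApcMin at 1515 CPM (1497 to 1532) and held 2474 CPM (2447 to 2501) in VApcMinL, 1.63 times (1.61 to 1.66) as high. The Lpl Penk Plau level of 2213 and 2191 CPM had a ratio of 0.990 (0.970 to 1.01). Glial-like cells held 1608 and 1854 CPM and smooth muscle-like cells 1984 and 1837 CPM.

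Igfbp2 was nearly absent from ApcMin stroma and came from few cells in VApcMinL. The fibroblast-like cells held 1 Igfbp2 UMI in ApcMin and 258 in VApcMinL, 0.0215 CPM and 6.20 CPM, a ratio of 288 whose counting interval runs from 51.2 to 11411. The log2 ratio of 8.17 was 2.22 with clusters of the merged libraries and 2.21 without the Wif1-led cells described next. In the Pi16 subset there were 0 and 255 UMIs, of which 254 lay in the Wif1-led cells and 1 in the Pi16-led cells of a finer clustering. Of all Igfbp2 UMIs in VApcMinL cells, 84.4% lay in 132 cells of that subset that the finer clustering separates by Wif1, a secreted Wnt inhibitor, and Itgbl1. The 10 leading genes of these cells hold 2 subepithelial fibroblast markers and none of the Pi16 subset. Among those 132 cells 26 held an Igfbp2 UMI, and of the 31 ApcMin cells in the same finer cluster 0 did, which allows a level of up to 7.30 CPM. In ApcMin, 14 of the 17 Igfbp2 UMIs came from 1 epithelial-like cell. The mesothelial-like cells held 2 and 16 UMIs, 8.16 and 28.4 CPM.

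The finer clustering, looked at more closely after the values above were seen, divided the Adamdec1 subset as well. The first was led by Cxcl13 and Ereg (367 ApcMin and 778 VApcMinL cells) and the second by Mmp10 and Fgfr2 (128 and 373 cells). The Mmp10-led cells held Igfbp3 at 1480 CPM in ApcMin and 1872 CPM in VApcMinL, a ratio of 1.26 (1.21 to 1.33) and a level near that of blood endothelium. The Cxcl13-led cells held 102 and 524 CPM, a ratio of 5.12 (4.66 to 5.64). For Igf1 the order was reversed, with a ratio of 1.89 (1.77 to 2.02) from 758 to 1433 CPM in the Mmp10-led cells, and 0.972 (0.923 to 1.02) from 497 to 483.5 CPM in the Cxcl13-led cells. Igfbp5 was 0.445 times (0.419 to 0.472) the ApcMin level in the Cxcl13-led cells and 1.14 times (1.05 to 1.24) in the Mmp10-led cells. Within the Adamdec1 subset, the larger ratios of the ligand and of Igfbp3 were thus in different finer clusters.

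**Figure D5:**
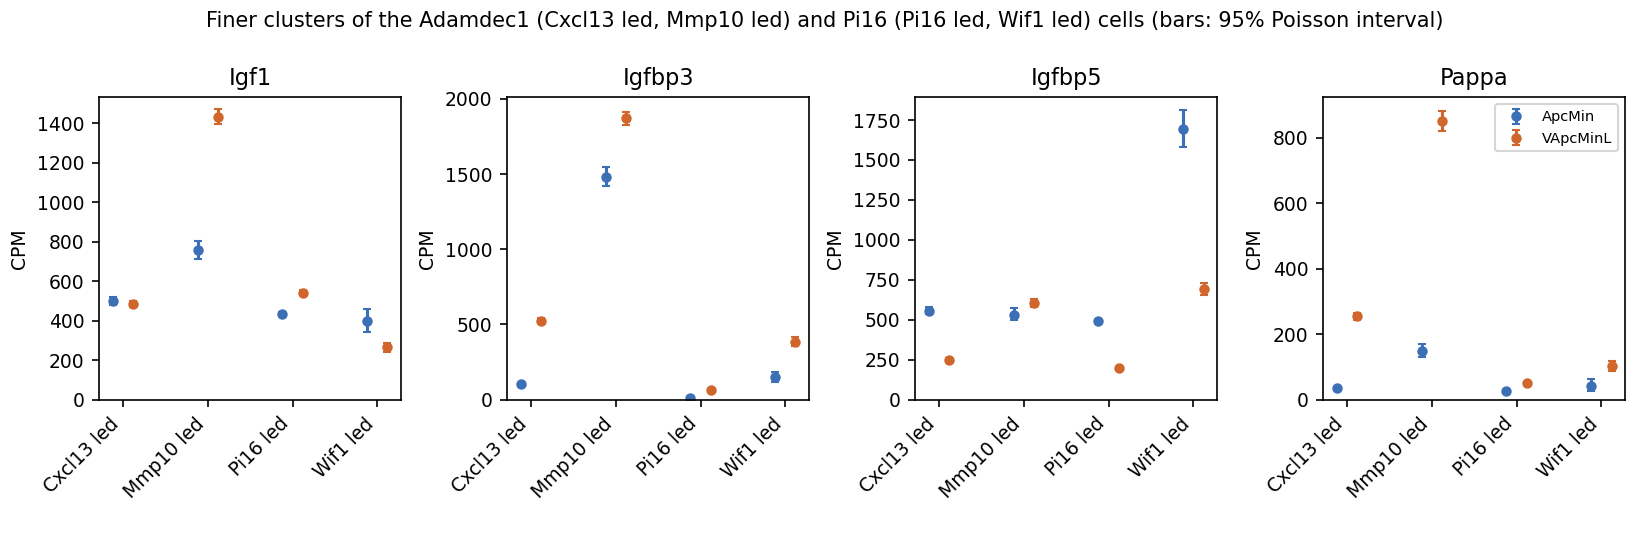
CPM of Igf1, Igfbp3, Igfbp5 and the protease gene Pappa in 4 finer clusters, named by a leading gene, of the Adamdec1 subset (Cxcl13, Mmp10) and of the Pi16 subset (Pi16, Wif1), for ApcMin (blue) and VApcMinL (orange) with exact Poisson 95% intervals. Igf1 differs most in the Mmp10-led cells (758 and 1433 CPM), of the Adamdec1 clusters Igfbp3 differs by the larger ratio in the Cxcl13-led cells (102 and 524 CPM), and Pappa is higher in VApcMinL in both of these.

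Compared with the Pi16-led cells, the Wif1-led cells held more Igfbp5 in both libraries. Their Igfbp5 level was 1694 CPM (1583 to 1812) in ApcMin and 689.6 CPM (652 to 729) in VApcMinL, against 489.6 and 197 CPM in the rest of the Pi16 cells at that resolution. Igfbp6 was 978 CPM (894 to 1068) in ApcMin and 1028 CPM (982 to 1075) in VApcMinL. The Pi16-led cells held 1274 and 803 CPM of it, so the order of these clusters differed between the libraries. Wif1 itself had 4 UMIs in the 31 ApcMin cells and 1723 in the 132 VApcMinL cells.

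Igfbp3 and Igfbp5 were also read together, cell by cell. In ApcMin, 45.6% of the Adamdec1 cells with an Igfbp3 UMI also held an Igfbp5 UMI, against 55.8% of the cells without one, and in VApcMinL the shares were 28.8% and 38.9%. In lymphatic endothelial-like cells the order was the other way, 79.2% against 42.9% in ApcMin and 77.6% against 52.5% in VApcMinL. Cells differ in depth, which these shares do not take out.

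Counts past 2-fold were read against all genes with at least 200 UMIs in the same class over both libraries, which are called compared here. In fibroblast-like cells 2 of the 8 genes compared, Igfbp2 and Igfbp3, were higher in VApcMinL and 0 lower, where 3.43% of 11764 genes differed by that much in either direction. Igf2 had too few UMIs to be compared in any class. The same 2 of 8 were higher in the Pi16 subset (2.78% of 9560 genes), Igfbp2 through the Wif1-led cells. In the Lpl Penk Plau subset it was 1 of 7 (1.32% of 8092 genes), Igfbp3. In the Adamdec1 subset Igfbp3 was higher and Igfbp6 lower, 2 of 7 (1.68% of 8400 genes). In the Grem1 Ackr4 subset 0 of 6 passed (0.87% of genes) and in the Scg2 Fibin subset 0 of 5 (2.31%). In the Bmp5 Sox6 subset 2 of 3 passed, Igfbp5 higher and Igfbp4 lower, with a background of 15.1%. The Bmp5-led cells of the finer clustering kept ratios of 5.67 and 0.356, and both directions turned at that resolution where the Wif1-led cells, which took the same name, were added. In blood endothelium Igf1 alone of 5 was lower (3.52%), and in lymphatic endothelium 0 of 4 passed (4.05%). Igfbp4 was lower in glial-like cells, 1 of 3 (3.73%), and Igfbp5 higher in mesothelial-like cells, 1 of 4 (5.95%), at 163 and 583 CPM. In smooth muscle-like cells 0 of 2 passed (5.39%) and in myeloid-like cells 0 of 5 (2.56%). Igfbp7 was the only gene with enough UMIs in T or ILC-like cells (1 of 1 higher, 6.15%, with 87.1% of its VApcMinL UMIs in 10 cells, where the 11 fibroblast markers summed to 1495 CPM in ApcMin and 5676 CPM in VApcMinL and their part was not tested) and in B-like cells (1 of 1 higher, 1.07%, at 26.8 and 80.8 CPM). In plasma-like cells Igfbp4 and Igfbp7 were higher, 2 of 2 (5.86%), at levels under those of the empty droplets. In epithelial-like cells Igfbp3 was higher and Igfbp5 lower, 2 of 5 (13.5%), and in the unnamed cluster Igfbp6 was lower, 1 of 4 (3.37%). The median absolute log2 ratio of the compared genes was 0.41 in fibroblast-like cells, against 0.18 for all genes compared there. Since the genes were chosen with such values known, these counts describe them and support nothing further.

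Among the other 19 genes of the pathway, 13 could be compared in fibroblast-like cells. Past 2-fold were 2 of them, the proteases Pappa and Pappa2, both higher in VApcMinL, against 3.43% of 11764 genes in either direction. Pappa, which cuts Igfbp4 and Igfbp5, was at 60.9 CPM in ApcMin and 458 CPM in VApcMinL Adamdec1 cells, 7.52 times (6.77 to 8.37), and at 27.4 and 56.5 CPM in Pi16 cells. In Lpl Penk Plau cells it was 119 and 103 CPM. The Mmp10-led cells held 149 and 852 CPM of Pappa and the Cxcl13-led cells 34.1 and 254 CPM. Pappa2, which cuts Igfbp3 and Igfbp5, was at 3.42 and 19.3 CPM in Pi16 cells. Glial-like cells held 617 and 615 CPM of Pappa, and the Bmp5 Sox6 subset 577 and 472 CPM.

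The inhibitors of the pappalysins had their own places. Stc2 was read mainly in the Grem1 Ackr4 subset at 409 and 294 CPM, and Stc1 in blood endothelium at 303 and 331 CPM. The serine protease gene Htra3 was at 692 and 764 CPM and Htra1 at 333 and 249 CPM in fibroblast-like cells. Of the other receptors, Igf2r, which clears IGF2, was at 104 and 76.5 CPM, the insulin receptor gene Insr at 49.2 and 71.4 CPM and the growth hormone receptor gene Ghr at 90.7 and 110 CPM there, with Ghr highest in Adamdec1 cells in VApcMinL (166 CPM) and in ApcMin (170.3 CPM). The adaptor Irs2 passed 2-fold in the Scg2 Fibin subset (44.7 and 118 CPM), 1 of 7 compared (2.31% of all genes). Htra3 was lower past 2-fold in blood endothelial-like cells, 1 of 6 compared (3.52%). Htra1 was lower in epithelial-like cells, 1 of 7 (13.5%). In the Bmp5 Sox6 subset Htra3 was higher and Htra1 lower, of 3 compared (15.1%). Grb14, an inhibitor of the insulin receptor family, was highest in glial-like cells at 182 and 225 CPM. Igfbp1, Igfals and Igfbpl1 stayed under 0.3 CPM in fibroblast-like cells of both libraries.

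The genes most like each member were sought over 35 points, each a class or fibroblast subset in a library, by Pearson's r of log2(CPM + 10) among 10117 genes. These points share 2 libraries, their free RNA and their depth, so r is a description. Igf1 was closest to Clec3b (0.94), Htra3 (0.94) and Mmp19 (0.94), and Igf1r to Klf9 (0.94), Cebpd (0.93) and Anxa5 (0.92). Igfbp4 was closest to Serping1 (0.96), Igfbp7 to Dlc1 (0.97) and Sparc (0.96), and Igfbp6 to Clec11a (0.89). Igfbp5 was closest to Ctdspl (0.87), and Igfbp3 had the loosest nearest gene, Bvht (0.80). Clec3b is also in a marker list used for naming. Igf2 and Igfbp2 fell under the minimum of 1000 UMIs.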

How the data were processed

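The 2 10x Chromium 3' libraries (Reagent Kit v3) were analysed. The authors aligned the reads to mm10 (GRCm38) and counted UMIs with Cell Ranger (2.1.1 in the submitters' processing notes and 3.1.0 in the file headers). The deposited values are raw UMI counts per gene and barcode, unnormalized, for all barcodes. The 9 genes, the pathway list and the marker lists were chosen with earlier results of these data known, and all 9 genes are named. Of the 19 pathway genes, Insrr, Irs1, Shc1 and Grb10 have no level given here. The rule that turns markers into cluster names was set after the clusters were seen. For clustering, the counts of a cell were scaled to a sum of 10000, log-transformed and integrated over both libraries in Seurat 5.3.0 (R 4.3.3) without the 9 genes, then clustered by Louvain at resolution 0.2 (alternative 0.5) on 20 principal components. Scrublet (scanpy 1.11.5) called 0 and 1 doublets by its own threshold, which did not work, so doublets were kept, and an alternative left out the 348 and 345 cells of highest score. A cluster that mixed B and fibroblast genes (48 and 23 cells) stayed unnamed. The level of a gene (CPM) is its UMIs in all cells of a class in a library, per 1000000 UMIs of those cells. Genes with at least 200 UMIs in a class over both libraries were compared at a 2-fold ratio, with exact Poisson intervals for levels and conditional binomial ones for ratios. Empty droplets were the barcodes of ranks 45000 to 90000 by UMIs. The calculations were tested on simulated data. Intervals were computed with scipy 1.17.1 in Python 3.11.15, and figures drawn with matplotlib 3.10.9.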

Additional observations from a re-analysis of the deposited data

How the results depend on the processing

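No paired analysis was possible because the libraries number 1 per genotype. The number of genes past 2-fold in fibroblast-like cells was 2, and 1 with clusters of the merged libraries and 1 without the Wif1 Itgbl1 cells, an alternative chosen after seeing the data. In both cases Igfbp3 passed, and Igfbp2 had too few UMIs to be compared. In blood endothelial-like cells the count of 1 became 0 without the highest doublet scores, with at least 6000 UMIs per barcode, with the mean of each cell's CPM, and with the 10 highest cells of the gene left out. In lymphatic endothelial-like cells the count of 0 became 2 without the highest doublet scores and 2 without the 10 highest cells. Leaving out 10 cells per library takes a larger share of the smaller ApcMin classes. It took 10 of 38 ApcMin and 10 of 175 VApcMinL lymphatic endothelial-like cells, and 10 of 123 and 10 of 486 blood endothelial-like cells. Among pairs past 2-fold, the log2 ratios that turned were 0.12 for Igf1 in blood endothelium without the highest doublet scores, 0.030 for Igfbp4 and -0.25 for Igfbp5 in Bmp5 Sox6 cells at resolution 0.5, and -0.21 for Igfbp5 there with merged libraries. The causes were not tested, except that resolution 0.5 puts the Wif1-led cells under the Bmp5 Sox6 name, while the Bmp5-led cells alone kept both directions. Among pairs under 2-fold, larger turns were 0.69 for Igfbp5 in fibroblast-like cells with each cluster at equal weight (from -0.41), 1.08 for Igfbp5 in lymphatic endothelium without the 10 highest cells (from -0.41) and 0.73 for Igfbp4 in blood endothelium without the highest doublet scores (from -0.49). Igfbp3 in fibroblast-like cells stayed between log2 ratios of 1.33 and 2.27 under 11 alternatives. Of the 488 values computed for 52 gene and class pairs, 459 kept their sign, and 77 of the 83 values for pairs past 2-fold stayed past it in the same direction.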
